A study of Mus musculus with 12 samples.

Results

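The comparison described here is that of brains of trained Stau2GT mice with brains of trained WT mice, which takes in 6 of the 12 arrays of the series, 3 for each genotype. Members were chosen by their titles, not by any measured value. Trained mice were about 4 months old when they began 4 weeks of behavioral tests (open field, recognition of new objects and new locations, Barnes maze), and the labels give all 12 mice as adult males of 16 to 20 weeks that lived in groups. Stau2GT mice (B6.129P2-Stau2Gt(RRG396)Byg) carry a gene trap with a LacZ reporter in *Stau2* in all cells of the body, which lowers the gene product without removing it. WT mice were C57Bl/6J and carried no trap. The remaining 6 arrays, 3 naive WT and 3 naive Stau2GT, came from mice without the tests. Total RNA of brain tissue, taken up in TRIzol and purified on RNeasy Mini columns, was hybridized to Mouse Gene 2.0 ST arrays. The labels do not say which parts of the brain were taken.

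Staufen2 is a double-stranded RNA-binding protein that neurons use to carry mRNAs into dendrites within ribonucleoprotein granules, and it also affects how long bound mRNAs last. A gene trap splices the upstream exons of its host gene onto a reporter, so that full-length transcript is lost in proportion to how often the trap is used. Training is followed by short-lived transcription of activity-induced genes and by longer-lasting changes at synapses, and RNA from a whole brain averages such changes over many cell types.

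The values are log2 RMA signals, so that a difference of 1 is a 2-fold difference. They are given below for WT mouse 1, 2 and 3 and then for Stau2GT mouse 1, 2 and 3, and a difference is always Stau2GT minus WT. A transcript cluster is the group of probes that stands for a gene on this array, and 27966 of 41345 clusters exceeded a value of 5 in at least 3 arrays and were tested. They cover 16425 genes. All 6 trained arrays carry the same array batch code and the naive arrays another, so the comparison of the trained genotypes lies within a batch, whereas training and batch cannot be told apart. The trained Stau2GT arrays varied most, with a median within-group SD of 0.137, against 0.106 for trained WT and 0.0971 to 0.1 for the naive groups. Brain markers were high. All 15 general neuronal genes and all 20 astrocyte genes listed were tested, at median levels of 10.47 and 8.79, and the 21 measured oligodendrocyte genes had a median level of 8.63. With RNA from whole tissue, fewer cells of a type and less RNA per cell cannot be told apart.

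*Stau2*, the trapped gene, read 8.27, 8.16 and 8.30 in trained WT brains and 8.02, 7.95 and 8.07 in trained Stau2GT brains. All 3 Stau2GT values lay below all 3 WT values. The log2 fold change was -0.23 (SE 0.06, n = 3 per group), with an adjusted p of 0.33 over all clusters and a two-sided exact permutation p of 0.1, the smallest that 3 mice against 3 allow. Its naive difference was -0.18. The paralog *Stau1* read 8.35, 8.44 and 8.48 against 8.51, 8.53 and 8.44, a difference of 0.07 (two-sided exact permutation p = 0.3). Around Staufen proteins, the 28 measured genes of RNA transport granules, which include *Fmr1*, *Pum2*, the *Cpeb* and the *Elavl* genes, had a median difference of 0.003, with 15 above 0 and 12 below. Apart from *Stau2* only *Cpeb1*, a regulator of cytoplasmic polyadenylation, had an unadjusted p under 0.05 among them, at 7.52, 7.67 and 7.55 against 7.35, 7.33 and 7.51 (-0.18, adjusted p = 0.539). Dendritic mRNAs that have been found with Staufen2, such as *Camk2a*, *Rgs4* and *Arc*, numbered 22 and ranged from -0.21 (*Arc*) to 0.10 (*Cplx2*), with a median of -0.032 and none called. The 23 genes of nonsense-mediated and Staufen-mediated decay had a median of -0.017, and none of them was called either.

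Few transcripts differed past the threshold, and most of those with a gene name were lower in Stau2GT brains. At an adjusted p under 0.05, 50 clusters were called, which is 0.179% of those tested, 25 higher (0.0894%) and 25 lower (0.0894%). Of these, 16 carry a single gene symbol (6 higher, 10 lower), 5 carry several symbols (all lower) and 29 are unnamed here (19 higher, 10 lower). In each of the 50 clusters the groups did not overlap. Some of the higher unnamed clusters lay below 5 in all WT arrays and passed the filter through Stau2GT arrays alone. Counted as genes, 14 were called of 16425 (0.0852%). Of these 14 genes 4 are predicted genes. The plot of called clusters by array shows the other 10 and the called cluster of *Ptcd3*, a gene whose brighter cluster was not called, and in each of these 11 all 3 mice were separated.

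**Figure D1:**
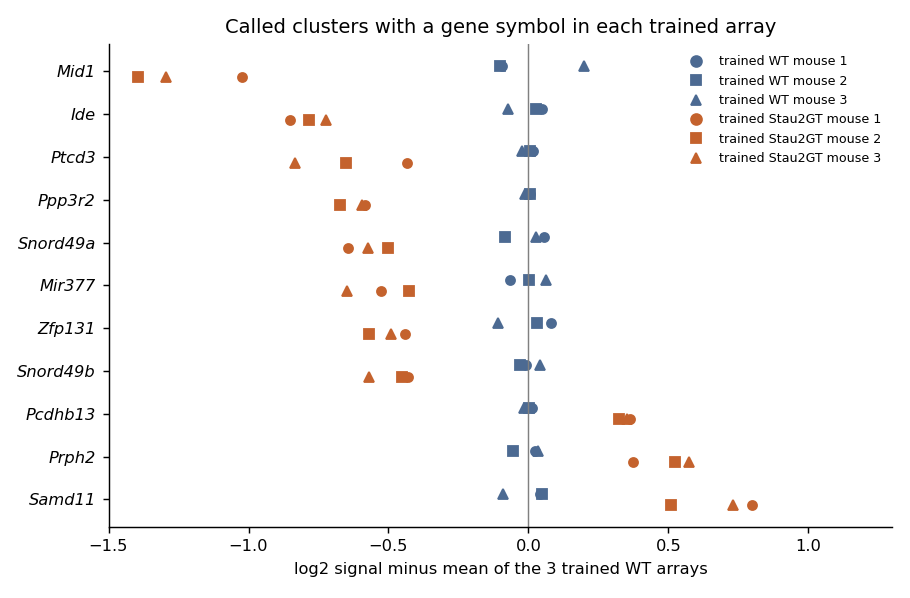
Called clusters with a single gene symbol, other than predicted genes, in each of the 6 trained arrays. The horizontal axis is the log2 signal minus the mean of the 3 trained WT arrays, blue marks are WT and orange marks Stau2GT mice, and the symbol shape gives the mouse number. *Mid1* lies farthest to the left, *Samd11* farthest to the right, and no Stau2GT mark falls among the WT marks of its gene.

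*Mid1*, an X-linked ubiquitin ligase on microtubules that marks protein phosphatase 2A for degradation, averaged 8.80 ± 0.17 (SD, n = 3) in WT, with all 3 mice at 8.70 or above, against 7.78, 7.41 and 7.51 in Stau2GT mice. It fell by 1.24 on the log2 scale (SE 0.14, n = 3 per group, adjusted p = 0.00494), and its naive difference was -0.73. The fit to the 6 trained arrays alone gave it an adjusted p of 0.0594. Of its network, 22 genes were measured, and apart from *Mid1* itself none had an unadjusted p under 0.05. Next to *Mid1* on chromosome X, *Erdr1* differed by -1.11 (adjusted p = 0.577) and by 0.10 in naive mice. The neighbors *Hccs* (-0.07) and *Asmt* (0.01) were near 0, and none of these was called. Whether the mice differed in sequence around *Mid1* was not tested. *Ide*, the metallopeptidase that degrades insulin and amyloid-beta, read 9.89, 9.87 and 9.77 against 8.99, 9.06 and 9.12. It fell by 0.79 on the log2 scale (SE 0.07, n = 3 per group, adjusted p = 0.000272). In naive brains it read 9.13, 9.05 and 9.12 in WT and 9.06, 9.19 and 9.18 in Stau2GT mice, so that the trained WT arrays stood above the other 9. The difference between the trained and the naive contrast was -0.83 (SE 0.09, adjusted p = 0.0147). Its neighbors on chromosome 19 did not share this, with *Marchf5* at 0.07 and *Kif11* at 0.03, neither of them called. *Ide* also belongs to a list of 9 measured genes known to differ between C57BL/6 substrains or stocks. That list had a median of -0.063, with 6 genes below 0 and 3 above, and *Ide* was its only called member. Whether the mice differed in stock at *Ide* was not tested. Among the other 27 genes of insulin signaling, *Igf1* read 6.15, 6.02 and 6.06 against 6.32, 6.27 and 6.26 and *Akt1* 8.59, 8.77 and 8.65 against 8.50, 8.48 and 8.47, with adjusted p-values of 0.358 and 0.423.

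Lower called clusters further included those of a testis gene, a zinc finger gene and *Ptcd3*. *Ptcd3*, a protein of the small mitochondrial ribosomal subunit, has 2 clusters that disagree. The called cluster read 8.76, 8.75 and 8.72 against 8.31, 8.09 and 7.91 (-0.64, SE 0.09, adjusted p = 0.0238), and the other, from which the gene is read elsewhere, 8.52, 8.58 and 8.57 against 8.58, 8.42 and 8.57 (-0.03). *Ppp3r2*, the calcineurin regulatory subunit of testis, read 5.54, 5.54 and 5.52 against 4.95, 4.86 and 4.94 (-0.62, adjusted p = 0.00658), close to the lowest level that was tested. The other 16 genes around calcineurin ranged from -0.40 (*Chp1*) to 0.10 (*Cabin1* and *Chp2*), and none of them was called. *Zfp131*, a BTB zinc finger transcription factor, read 8.28, 8.23 and 8.09 against 7.76, 7.63 and 7.71 (-0.50, adjusted p = 0.0302), with -0.27 in naive mice. It lies on chromosome 13 among the genes that flank the predicted gene *4833420G17Rik*, which fell by 1.27 (adjusted p = 0.0148) and had a naive difference of -0.90. Between these 2 genes lie *Ccl28* (-0.29), *Hmgcs1* (0.13) and *Nim1k* (-0.15), and beyond them *Nnt* (-0.06, naive -0.44). None of these 4 was called. The 334 zinc finger genes named *Zfp* had a median difference of -0.003, and *Zfp131* was the only one called.

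How firmly these calls stood differed. Over the alternatives tried, *Ide* lost its call in 1 of 21, *Mid1* in 3 of 21, *Ppp3r2* in 3 of 20, *Snord49b* in 6 of 21 and *4833420G17Rik* in 7 of 21. *Zfp131* lost it in 14 of 21, *Samd11* in 15 of 21, *Prph2* in 15 of 20, *Snord49a* in 17 of 21, and *Mir377* and *Pcdhb13* in 18 of 21. The predicted genes *Gm20172* (16 of 21), *Gm5878* (18 of 20) and *Gm26553* (19 of 20) were among the least firm.

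Named genes that rose were *Samd11*, *Prph2* and *Pcdhb13*. *Samd11*, a SAM domain protein of photoreceptors, read 6.01, 6.02 and 5.88 against 6.77, 6.48 and 6.70 (0.68, adjusted p = 0.0423), with 0.55 in naive mice. *Prph2*, a tetraspanin of photoreceptor outer segments, read 5.52, 5.44 and 5.53 against 5.87, 6.02 and 6.07 (0.49, adjusted p = 0.033), with -0.08 in naive mice. Its partner *Rom1* read 5.39, 4.74 and 5.55 against 5.94, 5.57 and 5.76 (0.53, adjusted p = 0.403). Of 8 measured genes of pineal gland and photoreceptors, 7 were above 0, *Aanat* was at -0.09, and the median was 0.105, with 0.027 (without Stau2GT mouse 2) to 0.160 when 1 array was left out. *Pcdhb13*, an adhesion protein of the clustered protocadherins, read 6.64, 6.63 and 6.61 against 6.99, 6.95 and 6.98 (0.35, adjusted p = 0.038). Its cluster did not move with it, since 12 of 21 measured clustered protocadherins were below 0, and *Pcdhb17* read 7.74, 7.71 and 7.65 against 7.43, 7.33 and 7.53 (-0.27, adjusted p = 0.314). The predicted genes *Gm5878* (0.40) and *Gm26553* (0.48) also rose, and *Gm20172* fell by 0.53.

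Beyond the calls, the 15 highest and 15 lowest genes were taken from 136 genes (60 higher, 76 lower) that had an unadjusted p under 0.01, no overlap between the trained groups and a group mean of at least 6. Of these 30, 4 were called (*Mid1*, *Ide*, *Zfp131* and *Samd11*), and the 26 given next did not pass. Lowest among these 26 was *H2al1m*, a histone variant of testis, at 6.18, 6.62 and 6.05 against 5.63, 5.66 and 5.58 (-0.66, adjusted p = 0.275). *Mettl7a1*, a lipid droplet methyltransferase-like protein, read 8.13, 8.08 and 8.12 against 7.44, 7.50 and 7.75 (-0.55), and *Cyb5r3*, the reductase of cytochrome b5, read 9.42, 9.37 and 9.41 against 9.09, 8.71 and 8.88 (-0.51). Receptors and channels of neurons were present here too. *Kcna4*, an A-type potassium channel, read 7.91, 7.89 and 8.08 against 7.58, 7.43 and 7.58 (-0.43), and *Htr1a*, an inhibitory serotonin receptor, read 6.21, 6.26 and 5.97 against 5.82, 5.56 and 5.88 (-0.39). The rest of the lower genes were *Crispld1* (-0.50), the chitinase-like *Chil1* (-0.45), the Rab escort protein *Chml* (-0.44), *Snhg6* (-0.44), *Zcchc10* (-0.43), the mitochondrial dehydrogenase *Adhfe1* (-0.41) and the retinaldehyde carrier *Rlbp1* (-0.39).

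Higher genes that did not pass were led by *Rpl3*, a protein of the large ribosomal subunit, which read 8.52, 8.53 and 8.66 against 9.89, 9.20 and 8.81 (0.73, adjusted p = 0.339). The spread among its Stau2GT mice was wide, and the other 2 clusters of *Rpl3* were at -0.15 and -0.01. *Rps23*, of the small subunit, read 6.72, 7.08 and 6.30 against 7.13, 7.28 and 7.40 (0.57). *Anxa4*, a calcium-dependent phospholipid-binding protein, read 5.49, 5.60 and 5.72 against 6.20, 6.04 and 6.04 (0.49, adjusted p = 0.0699) and differed by 0.44 in naive mice. *Opalin*, a membrane glycoprotein of oligodendrocytes, read 7.15, 7.29 and 7.22 against 7.71, 7.73 and 7.45 (0.41) and differed by 0.42 in naive mice, while most other oligodendrocyte genes lay below 0. Also higher were *Qrfpr* (0.56), a neuropeptide receptor, *Klk1b5* (0.47), a kallikrein, *Grb7* (0.46), an SH2 adaptor, *Dpep1* (0.43), a dipeptidase, *Cd274* (0.42), the ligand of PD-1, *Iqank1* (0.42), *Mc1r* (0.41), a melanocortin receptor, *Lactb2* (0.40), a mitochondrial ribonuclease, *Tgm1* (0.38), the transglutaminase of keratinocytes, and *Pklr* (0.36), a pyruvate kinase of liver and red blood cells.

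Several of these genes lie near *Stau2* on chromosome 1. In the order of tested genes, *Lactb2* lies 10 genes, *Snhg6* 23 and *Adhfe1* 29 genes before *Stau2*, and *Crispld1* 7 and *Gm20172* 31 genes after it. *Chil1* and *Chml*, also on chromosome 1, lie 551 and 789 genes away. Of the 15 higher genes, 4 were also higher at an unadjusted p under 0.05 in naive mice and 1 was lower. Of the 15 lower genes, 3 were lower in naive mice and none was higher, against 2.19% lower and 2.33% higher among all 16425 genes. *Lactb2* differed by 0.43 and *Adhfe1* by -0.22 in naive mice. Whether alleles of the donor strain next to the trap take part was not tested.

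Small nucleolar RNAs (snoRNAs) had the largest shift of any family with more than 2 measured genes. C/D box snoRNAs guide methylation and H/ACA box snoRNAs guide pseudouridylation of ribosomal RNA, small Cajal body RNAs do the same for spliceosomal RNAs, and most are released from introns of host genes when these are spliced. Of 70 measured snoRNA genes, 61 were lower and 9 higher in trained Stau2GT brains, with a median difference of -0.255, against a median of 0.000 over all genes. An unadjusted p under 0.05 was found for 25 of them in the lower direction (3.12% of all genes) and for none in the higher direction (3.82% of all genes). In 25 the Stau2GT arrays lay below all WT arrays (4.85% of all genes), and in none above (5.5% of all genes). The mean over the 70 genes, relative to the WT mean, was 0.00, -0.03 and 0.03 in the WT mice and -0.20, -0.20 and -0.33 in the Stau2GT mice. In naive mice the median was -0.023. No source here says whether the probes read the mature snoRNA or its precursor. How well the RNeasy Mini columns kept such short RNAs was not tested.

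Called were *Snord49a* and *Snord49b*, neighbors within the same host gene, *2410006H16Rik*, which was itself at 0.17. *Snord49b* read 9.57, 9.55 and 9.62 against 9.15, 9.13 and 9.01 and fell by 0.48 (SE 0.06, adjusted p = 0.0153). Its naive values were 9.14, 9.15 and 9.22 in WT and 9.11, 9.16 and 9.02 in Stau2GT mice, so that here as well the trained WT arrays stood above the other groups. *Snord49a* read 8.19, 8.05 and 8.16 against 7.49, 7.63 and 7.56 and fell by 0.57 (SE 0.09, adjusted p = 0.0423). Further members did not pass but were separated in all 3 mice. *Snora15* read 7.94, 7.78 and 7.95 against 7.41, 7.29 and 7.51 (-0.49, adjusted p = 0.0732). *Snord58b* read 6.37, 6.48 and 6.75 against 5.98, 5.83 and 5.76 (-0.68, adjusted p = 0.0791). *Snord47* read 9.61, 9.57 and 9.59 against 9.33, 9.16 and 9.04 (-0.41), and its 3 WT values were nearly equal. The lowest difference was that of *Snord73b*, at 5.94, 6.12 and 6.20 against 4.63, 5.14 and 5.83 (-0.89, adjusted p = 0.326), where the Stau2GT mice differed widely among themselves.

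The C/D box class carried most of this pattern. Of 40 C/D box genes 37 were below 0, with a median of -0.290 and 19 at an unadjusted p under 0.05. Of 25 H/ACA box genes 19 were below 0 (median -0.110, 5 at that p), and all 5 small Cajal body RNAs were below 0 (median -0.090). The level of the signal made little difference, with a median of -0.237 for the 27 dimmer genes (mean level under 7) and -0.257 for the other 43. Host genes stayed near 0. For 56 snoRNAs the surrounding gene was measured, and 47 of them lay lower than their host. The 45 hosts had a median of -0.007, with 25 below and 20 above 0. *Snora15* lies within *Cct6a* (-0.09), *Snord16a* (-0.40) within *Rpl4* (0.01), *Snord22* (-0.29) within *Snhg1* (-0.02), and *Snord70* (-0.82) within *Nop58* (-0.05). *Snord73b* and its host *Rps3a1* (0.91) had opposite signs. *Snord87* (-0.27) and its host *Snhg6* (-0.44) were both lower. The 11 other small noncoding RNAs measured had a median of -0.050, with 6 below 0, which is far from the shift of the snoRNAs. The difference between trained and naive contrasts reached an adjusted p under 0.05 for none of the 70 snoRNAs, and an unadjusted p under 0.05 for 15, all lower. The share of all genes at that unadjusted p was not counted, so the 15 cannot be set against it.

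**Figure D2:**
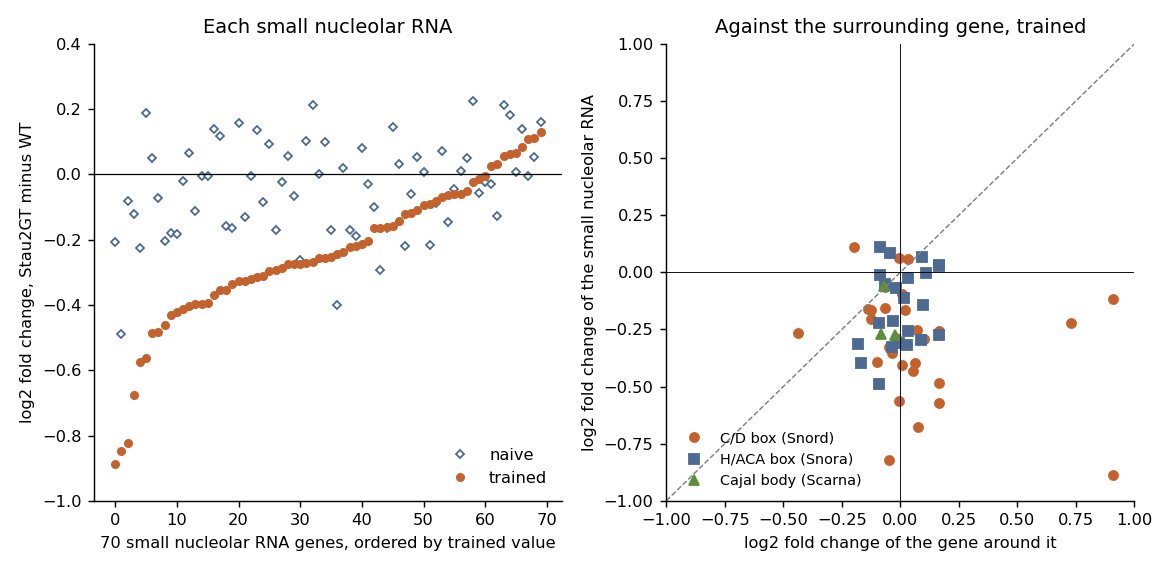
Small nucleolar RNAs. The left panel orders 70 genes by their trained log2 fold change (orange, Stau2GT minus WT) and sets the naive value of the same gene (open blue) above or below it; 61 orange points are below 0 while the naive points scatter around 0. The right panel plots each trained value of 56 snoRNAs against that of the gene around it, and 47 points lie below the dashed line of equal change.

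Of the 251 microRNA genes measured, 113 were below and 137 above 0, with a median of 0.023, so that the shift of the snoRNAs was not shared by this class of short RNA genes. An unadjusted p under 0.05 was found for 23 higher and 10 lower genes, 13.1% together against 6.95% of all genes. The median signal level of the 251 genes was 6.12. Of all 4009 genes at levels of 5 to 6, 339 were higher and 83 lower at that p. Of the microRNA genes only *Mir377* was called. The clusters are annotated by gene, and no source here says which part of a hairpin the probes read. A mature sequence was found for 216 of the 251 genes. The mature sequences below are those of the 6 genes with the smallest p, from RefSeq (GRCm38.p6), written 5′ to 3′ with the seed, bases 2 to 8, in capitals.
mmu-miR-377-3p: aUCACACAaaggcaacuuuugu
mmu-miR-377-5p: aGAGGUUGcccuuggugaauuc
mmu-miR-323-3p: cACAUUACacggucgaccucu
mmu-miR-139-5p: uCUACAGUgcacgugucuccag
mmu-miR-23a-3p: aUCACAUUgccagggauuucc
mmu-miR-181c-5p: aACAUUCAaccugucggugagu
mmu-let-7i-5p: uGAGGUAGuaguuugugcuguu
They lie at chr12:109740553-109740574 (+), chr12:109740515-109740536 (+), chr12:109712558-109712578 (+), chr7:101475382-101475403 (+), chr8:84208563-84208583 (+), chr8:84178924-84178945 (-) and chr10:122985698-122985719 (-), in this order.

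*Mir377* read 6.02, 6.09 and 6.15 against 5.56, 5.66 and 5.44 and fell by 0.53 (SE 0.09, adjusted p = 0.0474). It belongs to the imprinted region between *Meg3* and *Dio3*, a long cluster of microRNAs transcribed from the maternal chromosome. Its neighbors *Mir496a* (-0.11) and *Mir541* (-0.10) were not called, and over the 37 measured microRNAs of the region 22 were below 0, with a median of -0.027. *Mir323* of the same region read 6.35, 6.36 and 6.56 against 5.83, 6.10 and 6.07 (-0.42, adjusted p = 0.307). Both seeds of *Mir377* belong to no other measured gene. Other microRNAs lay higher without passing. *Mir139* read 5.99, 5.59 and 5.49 against 6.65, 6.50 and 6.24 (0.77, adjusted p = 0.252), and *Mir23a* 4.89, 5.28 and 4.88 against 5.69, 5.67 and 5.98 (0.76, adjusted p = 0.269), with a naive difference of -0.50. *Mir27a*, next to *Mir23a*, was at -0.07.

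Genes that share a seed had unequal differences. The seed ACAUUCA belongs to 4 measured genes, of which *Mir181c* read 7.20, 7.13 and 7.02 against 7.36, 7.53 and 7.55 (0.36, adjusted p = 0.264), *Mir181d* differed by 0.21, *Mir181a-2* by -0.05 and *Mir181b-1* by -0.01. The let-7 seed GAGGUAG belongs to 6 measured genes. Among them *Mirlet7i* read 4.83, 5.35 and 5.37 against 5.61, 5.66 and 5.85 (0.52, adjusted p = 0.274), *Mirlet7c-2* differed by -0.22, and the other 4 lay between -0.01 and 0.09. Of the 15 proteins that make or load microRNAs and were measured, only *Lin28a*, which blocks let-7 processing, had an unadjusted p under 0.05, at 6.00, 5.79 and 5.92 against 5.63, 5.32 and 5.73 (-0.34, adjusted p = 0.371).

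Across 136 lists of genes by cell type, pathway or family, shifts were small. The median difference of 122 lists (89.7%) lay within 0.1 of 0, and 125 lists had no called member. The array means of a list were separated between the genotypes in 15 lists, 6 higher and 9 lower, and overlapped in the other 121 (89%). Separation in 11% of the lists is close to the 10.4% of all genes without overlap. These lists share members, and none was tested as a set. Counts of members at an unadjusted p under 0.05 stand beside 3.82% higher and 3.12% lower among all genes, 6.95% together. Leaving out 1 trained array moved the median of 132 of the 136 lists by over 1.5 times or across 0, and of 69 across 0. For a median near 0, as most were, a small move is enough for either. The range over the 6 arrays left out in turn is therefore given with many of the lists, as lowest to highest. The medians of 35 of them and of all genes are plotted with their naive values.

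**Figure D3:**
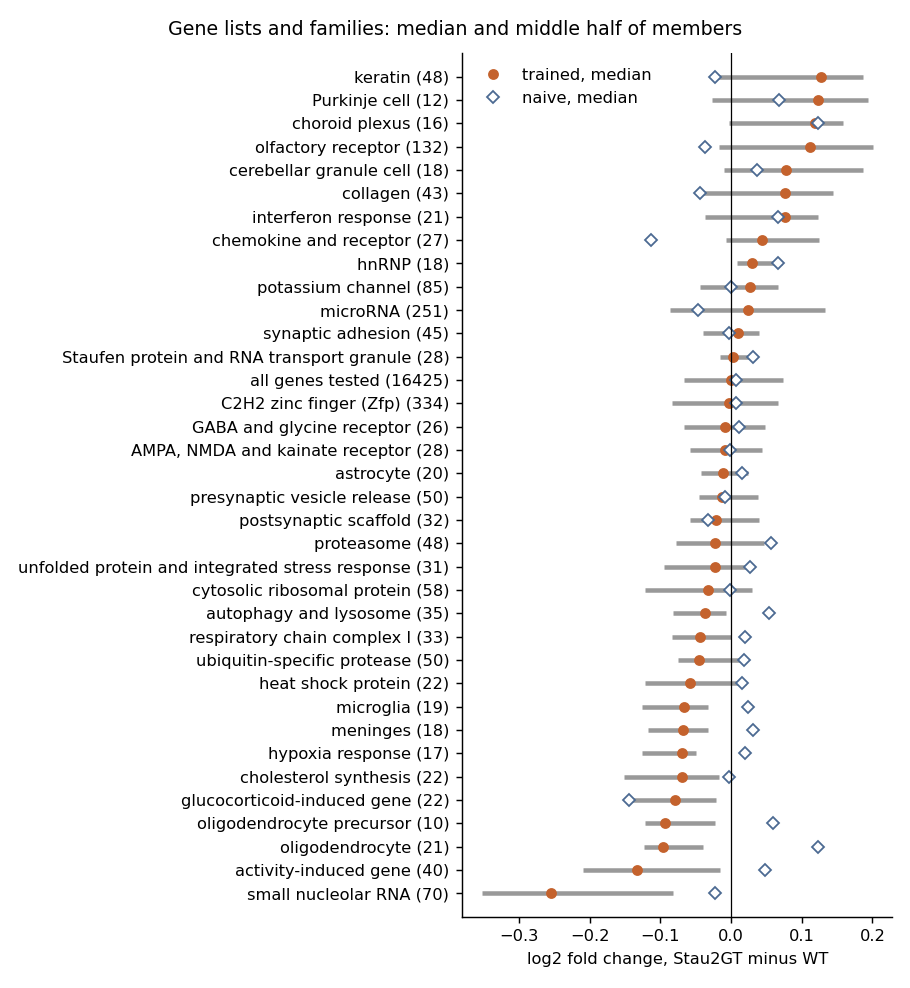
Gene lists and families, with the number of tested genes in parentheses. The horizontal axis is the log2 fold change (Stau2GT minus WT). Orange points are medians in trained mice, grey bars run from the lower to the upper quartile of the members, and open blue diamonds are medians in naive mice. Only the snoRNAs, at -0.255, lie beyond 0.2, and lists of synaptic genes lie next to the value of all genes at 0.000.

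Activity-induced genes, the transcription factors and effectors that neurons switch on within minutes to hours of firing, had the next largest median after the snoRNAs among lists of at least 10 genes. Of 40 measured, 30 were below and 9 above 0, with a median of -0.133 (-0.162 to -0.089), and 0.048 in naive mice. None was called, and 6 had an unadjusted p under 0.05 in the lower direction. *Sik1*, a kinase that restrains CREB-dependent transcription, read 7.94, 7.74 and 7.68 against 7.42, 7.55 and 7.53 (-0.29, adjusted p = 0.403). *Egr2* read 7.25, 6.66 and 6.97 against 6.55, 6.52 and 6.58 (-0.41), and *Nr4a1*, an orphan nuclear receptor, read 9.55, 9.40 and 9.56 against 9.13, 9.16 and 9.06 (-0.39). *Trib1* (-0.37), *Ier5* (-0.24) and *Jun* (-0.20) were also without overlap. The best known members overlapped, among them *Arc* (-0.21), *Egr1* (-0.25), *Fos* (0.01), *Npas4* (0.03) and *Bdnf* (0.04). *Maff*, a small partner of AP-1-like factors, went the other way, at 5.12, 5.04 and 5.16 against 5.58, 5.49 and 5.43 (0.39, adjusted p = 0.292). By mouse, the mean of the list was 0.06, -0.07 and 0.01 in WT and -0.06, -0.16 and -0.13 in Stau2GT mice, and WT mouse 2 fell within the Stau2GT range.

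Related response programs had medians nearer to 0. Genes induced by glucocorticoids had a median of -0.080 over 22 genes in trained (-0.111 to -0.043, the latter without WT mouse 1) and -0.145 in naive mice, and the lowest p among them was that of *Pdk4*, a brake on pyruvate use, at 6.66, 6.75 and 6.90 against 6.51, 6.40 and 6.47 (-0.31, adjusted p = 0.311). Of the hypoxia-responsive genes 15 of 17 were below 0, with a median of -0.070 (-0.102 to -0.045). *Ndrg1* read 9.86, 9.93 and 9.91 against 9.78, 9.61 and 9.48 (-0.28, adjusted p = 0.358), *P4ha1*, a collagen hydroxylase, differed by -0.23 and *Epas1*, the factor HIF-2 alpha, by -0.15. *Car9* was at 0.36 with overlapping arrays. Clock genes had a median of 0.013 over 21 genes (-0.038 to 0.042), with *Nfil3* (-0.23) and *Arntl* (-0.19) lowest by p. *Hspb1*, a small heat shock protein, read 5.95, 5.94 and 5.69 against 5.59, 5.38 and 5.34 (-0.42, adjusted p = 0.442), and 15 of 22 heat shock genes were below 0 (median -0.058, -0.088 to -0.022). In the unfolded protein response (31 genes, median -0.023, -0.055 to -0.005), *Pdia6* (-0.20), *Calr* (-0.18) and *Nupr1* (-0.22) were the members with an unadjusted p under 0.05.

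Enzymes of cholesterol synthesis, the pathway that neurons and myelinating glia both rely on in the adult brain, lay lower in 17 of 22 genes, with a median of -0.070 and 5 genes at an unadjusted p under 0.05 in the lower direction. *Nsdhl* read 8.16, 8.37 and 8.43 against 7.97 to 8.04 (-0.32, adjusted p = 0.261). *Cyp51* read 7.73, 7.76 and 7.68 against 7.57, 7.19 and 7.41 (-0.33) and *Sqle* 8.15, 8.31 and 8.12 against 7.96, 7.95 and 8.01 (-0.22). *Ebp* (-0.21) and *Lss* (-0.22) did not overlap either. The regulator *Srebf1* read 7.18, 7.17 and 7.21 against 7.40, 7.31 and 7.27 (0.14), and the early enzyme *Hmgcs1* was at 0.13, so that the members did not all lie on the same side. The median of the list was -0.031 without Stau2GT mouse 2, whose mean (-0.14) was the lowest of the 6, and -0.119 without Stau2GT mouse 1.

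Medians of energy metabolism were below 0 and moved with the array left out. Of 33 complex I genes 24 were below 0 (median -0.043, 0.00 without Stau2GT mouse 2 and -0.097 without mouse 1), and *Ndufb3*, an accessory subunit, read 7.27, 7.25 and 7.36 against 6.81, 7.13 and 6.97 (-0.32, adjusted p = 0.269). Complexes III and IV had a median of -0.017 (-0.062 to 0.027), ATP synthase of -0.033 (-0.132, without Stau2GT mouse 1, to -0.010), glycolysis of -0.007 (-0.043 to 0.023) and the TCA cycle of -0.027 (-0.067 to -0.020), the last with *Suclg1* at -0.20 and *Fh1* at -0.18. Over 58 cytosolic ribosomal proteins the median was -0.033 (-0.103 to 0.007), 5 were higher and 3 lower at an unadjusted p under 0.05, and they ranged from -0.49 (*Rpl30*) to 0.73 (*Rpl3*, in 1 of its 3 clusters). *Rps3a1*, at 0.91, was not in this list, which took genes by the form of their symbol. Among 71 mitochondrial ribosomal proteins *Mrpl27* was highest, at 5.04, 5.10 and 5.18 against 5.45, 5.78 and 5.57 (0.49, adjusted p = 0.0757). *Eif2d*, a factor of ribosome recycling, read 7.09, 6.83 and 6.96 against 7.17, 7.22 and 7.23 (0.25). RNA helicases (48 genes, median -0.007), hnRNP genes (18, 0.030) and SR splicing factors (10, 0.050) had no called member. *Ddx18*, a nucleolar helicase, read 7.59, 7.56 and 7.71 against 7.25, 7.41 and 7.45 (-0.25, adjusted p = 0.336), and *Ddx47*, another helicase of ribosome assembly, differed by -0.24 without overlap.

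Protein breakdown included 35 of 50 ubiquitin-specific proteases below 0 (median -0.045, -0.053 to -0.022). *Usp39*, a splicing factor of this family, read 7.44, 7.58 and 7.46 against 7.25, 7.17 and 7.13 (-0.31, adjusted p = 0.173). The proteasome had a median of -0.023 over 48 genes (-0.053 to 0.012), with *Psmd6* at -0.29 and *Psme2*, of the interferon-induced activator, at 0.25. Autophagy and lysosome genes were below 0 in 28 of 35 (median -0.037, -0.092 to -0.027), led by *Npc1*, the lysosomal cholesterol exporter, at 8.85, 8.78 and 8.96 against 8.75, 8.61 and 8.62 (-0.20). TRIM ligases, the family of *Mid1* by its domains, had a median of -0.007 over 45 genes, with *Trim13* at -0.37 and *Trim68* at 0.24.

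Synaptic genes as lists had medians close to that of all genes. AMPA, NMDA and kainate receptors had a median of -0.008 over 28 genes, GABA and glycine receptors of -0.008 over 26, presynaptic release genes of -0.013 over 50, adhesion genes of 0.010 over 45 and postsynaptic scaffolds of -0.022 over 32, and none had a called member. Single members with small p-values pointed both ways. *Grip1*, which anchors AMPA receptors, read 7.19, 7.24 and 7.30 against 7.01, 6.95 and 7.03 (-0.25, adjusted p = 0.352), and *Magi1*, another scaffold, read 8.42, 8.35 and 8.37 against 8.65, 8.48 and 8.65 (0.21, adjusted p = 0.364). *Cntn5*, a contactin, read 7.57, 7.59 and 7.63 against 7.33, 7.13 and 7.46 (-0.29). *Gabrr2*, a rho subunit of GABA receptors, was at 0.41 and *Gad1*, which makes GABA, at 0.16, both without overlap.

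Receptors for modulators showed lower values for a few members. Besides *Htr1a*, *Htr2a* read 8.38, 8.51 and 8.59 against 8.40, 8.14 and 8.22 (-0.24), while the channel subunit *Htr3b* was at 0.22, and the median of 13 serotonin receptors was -0.013. *Adra2c*, an inhibitory adrenergic receptor, read 5.94, 5.96 and 6.08 against 5.70, 5.70 and 5.29 (-0.43, adjusted p = 0.274). *Sstr2*, a somatostatin receptor, read 7.56, 7.34 and 7.52 against 7.31, 7.19 and 7.17 (-0.25), and *Npy2r* was at -0.34 with overlap. Dopamine receptors (5 genes) had a median of -0.047 and neuropeptide receptors (39) of -0.030. Acetylcholine receptors leaned the other way, with 12 of 18 genes above 0 and 6 below. Their median was 0.093 (0.031 to 0.112 when 1 array was left out) at a median level of 5.98. Their array means were separated, and none was called. Potassium channels had a median of 0.027 over 85 genes, and *Kcna4*, at -0.43, had the lowest difference among them. *Kcnt2* was next lower by p, at 8.54, 8.51 and 8.56 against 8.40, 8.32 and 8.36 (-0.18). At an unadjusted p under 0.05, 3 potassium channels were higher and 2 lower. Calcium channels (25 genes, -0.007), sodium channels (9, 0.043) and TRP channels (18, 0.007) had medians close to that of all genes. Among signaling kinases, *Mapk11* read 8.46, 8.43 and 8.51 against 8.24, 8.19 and 8.17 (-0.27, adjusted p = 0.255), and *Map3k21* 4.96, 5.00 and 4.98 against 5.43, 5.33 and 5.31 (0.38, adjusted p = 0.173).

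Oligodendrocyte, microglial and meningeal lists lay below 0. Of 21 oligodendrocyte genes 17 were below 0 (median -0.097, naive 0.123), of 10 precursor genes 8 (-0.093, naive 0.060) and of 19 microglial genes 16 (-0.067, naive 0.023). In each of these lists, whose arrays overlapped, Stau2GT mouse 2 had the lowest mean. Mouse 1 lay within the WT values in the oligodendrocyte and precursor lists. In the microglial list it lay slightly above them, at 0.0223 against a highest WT mean of 0.0175. Without mouse 2 the 3 medians were -0.027, -0.020 and -0.035, and without mouse 1 they were -0.132, -0.160 and -0.143. *Anln*, an actin-binding protein of myelin, read 7.96, 7.97 and 7.88 against 7.65, 7.69 and 7.79 (-0.23, adjusted p = 0.358), and *C1qc*, a complement subunit of microglia, 6.83, 6.96 and 6.96 against 6.76, 6.75 and 6.67 (-0.19). Astrocyte genes were at -0.012 (-0.038 to 0.001). Of 21 endothelial and pericyte genes 11 were below 0 (median -0.037, -0.070 to 0.013), with *Pecam1* at 7.43, 7.50 and 7.35 against 7.30, 7.17 and 7.25 (-0.19). Meningeal genes were below 0 in 14 of 18 (median -0.068, -0.112 to -0.038), led by the proteoglycan *Bgn* (-0.24) and by *Ogn* (-0.34). Choroid plexus genes were above 0 in 12 of 16, with a median of 0.118 and 0.123 in naive mice. *Ttr*, the main secreted protein of this tissue, read 12.28, 12.44 and 11.97 against 12.48, 12.34 and 12.32 (0.15), and Stau2GT mouse 1 had the highest mean of the list (0.21). Without that mouse the median of the list was 0.054, and without WT mouse 3 it was 0.033. The pituitary hormone gene *Gh* read 5.42, 5.96 and 5.79 against 5.75, 6.53 and 7.94, so that a single Stau2GT mouse stood out, and 7 of 8 pituitary genes were above 0 (median 0.140, 0.063 to 0.198). The part of tissue content in the results was not tested.

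**Figure D4:**
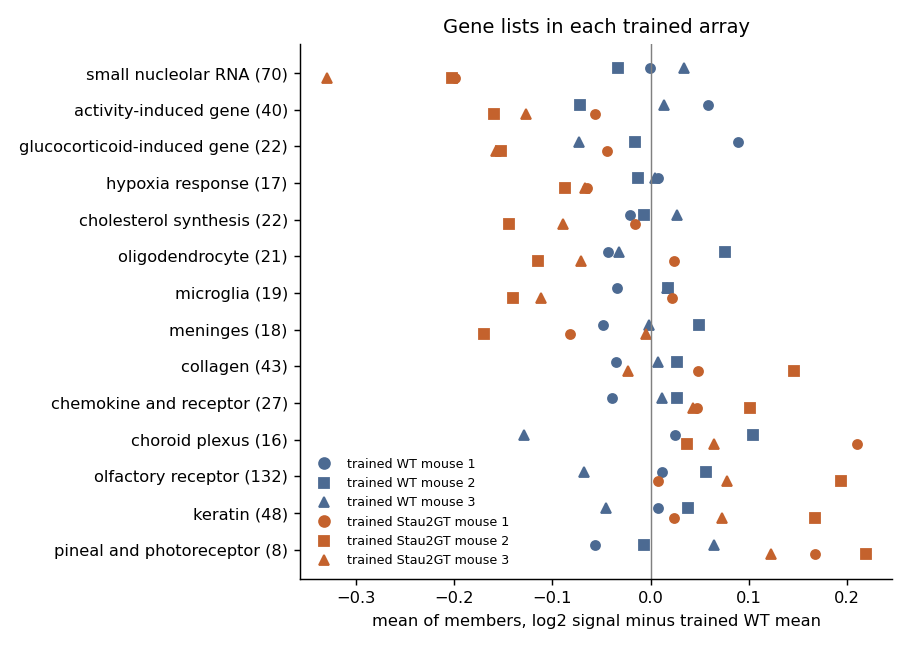
Mean of the members of 14 lists in each trained array, as log2 signal minus the trained WT mean, with blue marks for WT and orange marks for Stau2GT mice and the shape for the mouse number. In the snoRNAs the 3 Stau2GT marks (-0.20, -0.20 and -0.33) are far from the WT marks, whereas in most other lists the genotypes overlap, and the square of Stau2GT mouse 2 often lies at an end.

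Cerebellar lists were above 0, with no member called. The median was 0.123 over 12 Purkinje cell genes (naive 0.068) and 0.078 over 18 granule cell genes (naive 0.037). Leaving out 1 array gave 0.097 to 0.144 for the former and 0.056 to 0.137 (without WT mouse 2) for the latter. The array means overlapped in both lists. Stau2GT mouse 1, at 0.0203 and 0.0613, lay below WT mouse 2, at 0.0578 and 0.0685. *Car8*, a Purkinje cell marker, read 9.95, 9.99 and 9.75 against 10.02, 10.14 and 10.15 (0.21), and *Slc1a6*, its glutamate transporter, 7.35, 7.62 and 7.55 against 7.77, 7.85 and 7.64 (0.25). Of other regions, striatum (median -0.013), cortex and hippocampus (-0.017) and hypothalamic neuropeptides (-0.003) were close to 0, while 11 of 13 genes of thalamus and habenula were below 0 (-0.053, but -0.142 without Stau2GT mouse 1 and 0.00 without mouse 3).

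Some immune and matrix families lay above 0. Their signal was dim, with median levels of 5.72 for chemokines, 5.98 for interferon-induced genes and 6.03 for collagens. All genes at levels of 5 to 6 had a median of 0.053. After the median of genes at the same level was subtracted, the medians of these 3 lists were 0.035, 0.040 and 0.037. Of 27 chemokines and their receptors 18 were above 0 (median 0.043, 0.023 to 0.072, naive -0.113), with 4 genes at an unadjusted p under 0.05. *Cxcr3* read 5.74, 5.81 and 6.00 against 6.16, 6.53 and 6.17 (0.44, adjusted p = 0.408) and *Ccr7* 5.68, 5.93 and 5.77 against 6.03, 6.14 and 6.20 (0.33). *Il33*, an alarmin stored in nuclei of oligodendrocytes and astrocytes, read 8.11, 8.19 and 8.17 against 8.58, 8.39 and 8.30 (0.27, adjusted p = 0.344), at a higher level than most of its family. Complement genes were below 0 in 7 of 13 (median -0.033), although *C1ra*, a protease of complement, had the highest difference of the list at 0.48. *Tlr3*, the receptor for double-stranded RNA, read 8.11, 7.93 and 7.89 against 7.75, 7.10 and 7.84 (-0.41). Interferon-induced genes had a median of 0.077 (naive 0.067) with WT mouse 2 highest of all, and 0.018 (without WT mouse 3) to 0.132 (without WT mouse 2) when 1 array was left out. Collagens were above 0 in 26 of 43 (median 0.077), 7 of them at an unadjusted p under 0.05, and *Col27a1* read 6.75, 6.65 and 6.54 against 6.89, 7.14 and 6.87 (0.32, adjusted p = 0.354). Without Stau2GT mouse 2 the median of the collagens was 0.008, without WT mouse 1 it was 0.030, and with the filter at 6 in place of 5 it was -0.023.

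Families of tissues other than brain, which sit near the floor of the array, lay above 0. Of 132 olfactory receptors that passed the filter, out of 1105 on the array, 95 were above 0 (median 0.112, naive -0.037), and of 48 keratins 35 (0.127, naive -0.023). A gene near the cut can pass the filter through its 3 trained Stau2GT arrays alone, which favors differences above 0. How many members passed in this way was not counted. *Olfr283* read 5.42, 5.44 and 5.22 against 5.86, 5.62 and 5.75 (0.38, adjusted p = 0.226), and *Olfr287* went the other way at 5.09, 5.33 and 5.14 against 4.65, 4.46 and 4.63 (-0.61). Long noncoding RNAs had a median of 0.050 over 1024 genes, with 91 (8.89%) above and 19 (1.86%) below all WT arrays, against 5.5% and 4.85% of all genes. Dim genes of any kind leaned the same way, but by less than the olfactory receptors and keratins. After the median of genes at the same level was subtracted, the medians of these 2 families were 0.067 and 0.112. Over 4009 genes with a mean level of 5 to 6 the median was 0.053 and 339 were higher and 83 lower at an unadjusted p under 0.05, and over 3676 genes at 7 to 8 the median was -0.020, with 70 higher and 164 lower. Stau2GT mouse 2 had the widest deviation, 0.103 at levels of 5 to 6 and -0.073 at 7 to 8, as the plot by signal level shows. Without it, 288 in place of 382 genes under a level of 6 were higher, and the medians of olfactory receptors and keratins were 0.047 and 0.082, the lowest values when 1 array was left out.

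**Figure D5:**
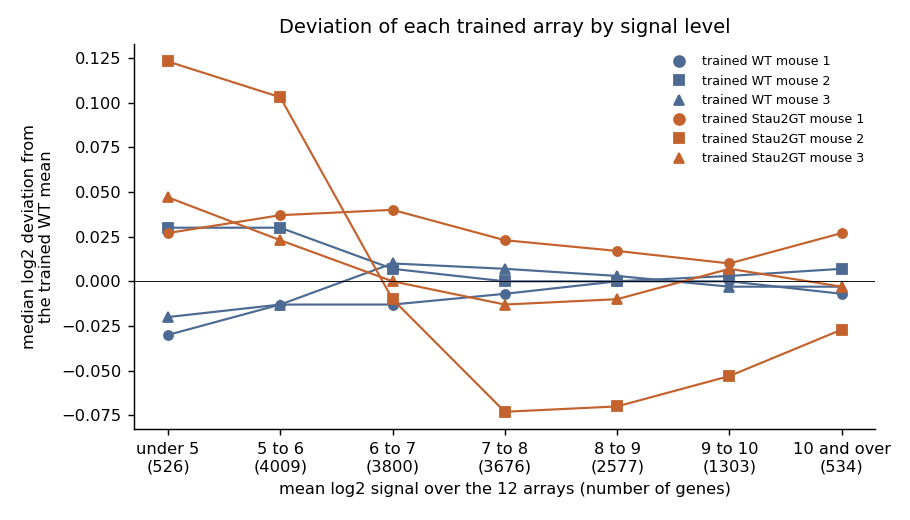
Median deviation of each trained array from the trained WT mean (vertical axis, log2) against the mean signal level of the genes over the 12 arrays (horizontal axis, number of genes in parentheses). Stau2GT mouse 2 runs from 0.123 for the dimmest genes to -0.073 at levels of 7 to 8, and the other 5 mice stay between -0.030 and 0.047.

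The same genes in naive brains gave little overlap. Of 628 genes higher in trained Stau2GT brains at an unadjusted p under 0.05, 16 (2.55%) were higher and 44 (7.01%) lower in naive Stau2GT brains, and of 513 lower genes 12 (2.34%) were higher and 19 (3.7%) lower. Among all genes 2.33% were higher and 2.19% lower in naive mice. Clusters called in trained mice overlapped more often, since 15 of 25 higher and 6 of 25 lower clusters had an unadjusted p under 0.05 in the same direction in naive mice. Counted once per set of values, these were 7 of 16 higher and 6 of 24 lower clusters. Some of these higher clusters passed the filter only through Stau2GT arrays, trained and naive, as given below. The genotype difference itself differed between trained and naive mice in 6 clusters (0.0215% of those tested), of which *Ide* is the only one with a single gene symbol.

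Unnamed clusters had the largest differences. Of the 25 higher clusters, 9 share a single set of values, 4.68, 4.78 and 3.94 against 7.49, 7.22 and 7.39 (2.90), with 2.31 in naive mice. In all trained and naive WT arrays these 9 lay below the cut of 5, at 3.94 to 4.78. They passed the filter through Stau2GT arrays alone, as did the higher clusters 17549054, 17549080 and 17549096. The lowest cluster, 17270096, read 9.52, 8.97 and 9.40 against 7.27, 7.41 and 7.03 (-2.06, adjusted p = 0.000224) and -0.06 in naive mice. Counted once per set of values, 40 called clusters were left, 16 higher and 24 lower. Of the clusters with several symbols, that of *Hjurp* and 2 predicted genes read 7.86, 8.04 and 7.91 against 6.75, 6.77 and 6.80 (-1.16), with -1.26 in naive mice. The 3 clusters that join *Sumo2* with *Mir684-1* and *Mir684-2* fell by 0.80, 0.80 and 0.66, the first 2 with identical values, and had naive differences of 0.10, 0.10 and 0.04.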

How the data were processed

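Brain RNA of 12 mice was measured on Mouse Gene 2.0 ST arrays. The authors made the values from array intensities by RMA with the R package oligo, and the deposited table holds log2 signals for each array and cluster. No source here says if all 12 arrays were normalized in a single run. Groups came from the sample titles and symbols from the platform annotation. A gene with several clusters was read from the cluster with the highest mean among those with exactly 1 symbol. The fit used clusters that exceeded log2 5 in 3 or more arrays, the filter of the methods. Group means of the 4 groups were fitted to the 12 arrays by limma 3.58.1 (R 4.3.3), with 8 residual and 2.78 prior degrees of freedom, and p-values were adjusted by Benjamini-Hochberg over 27966 clusters. An adjusted p under 0.05 is a call, and unadjusted p-values are limma's as well. The fit was tested on simulated data.

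Replicates are different mice, whose number limits the precision. Members, lists, alternatives and the rule for named genes were chosen with earlier results of these data known. By that rule the text names called genes, the 15 highest and the 15 lowest genes, and, for each list, defining members and up to 8 members with the smallest p. *Nr4a1*, members at the end of a range and neighbors of called genes were named after their values were seen. Lists are described by counts and medians, with no set test. As alternatives, the filter was dropped or set to 6, arrays were quantile normalized or median centred, moderation was made trended and robust, arrays were weighted, the replicate number entered as a block (statmod 1.5.0), only the 6 trained arrays were fitted, the t-test named in the figure legend was run, and every array was left out once. Some items are not reported here.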

Additional observations from a re-analysis of the deposited data

Results flagged for a closer look

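In 6 clusters the genotype difference in trained mice was not that in naive mice, by limma's test of the difference of the 2 contrasts. For *Ide* the trained difference was lower than the naive difference by 0.83 (interaction -0.83, adjusted p = 0.0147), and for the unnamed cluster 17270096 the interaction was -2.00 (adjusted p = 0.0211). For *Ide* the trained WT arrays stood above the other 9 arrays, and for cluster 17270096 the trained Stau2GT arrays (7.03 to 7.41) stood below the other 9 (8.97 to 9.72). In the remaining 4 the naive WT arrays stood below the other 9. The unnamed cluster 17467250 (interaction -2.02, adjusted p = 0.000135) read 6.72, 7.09 and 6.93 in naive WT and at least 8.81 in all other mice. The 3 clusters that join *Tmem254a*, *Tmem254b* and *Tmem254c* (-1.90, -1.82 and -1.59, adjusted p = 0.00211 in each) read 6.85 to 7.12 in naive WT mice and at least 7.81 in all others. In these values the batch of arrays and the training cannot be told apart. Whether the groups differed in the stock of the mice was not tested.

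In 8 further genes named above, the groups did not overlap in either contrast and the signs were opposite, but the interaction did not pass the threshold. It was 0.51 for *Gm5878* (adjusted p = 0.262), 0.73 for *Klk1b5* (0.375), 0.35 for *Eif2d* (0.482), 0.26 for *Gad1* (0.569), 0.41 for *Igf1* (0.376), -0.31 for *Lss* (0.573), 0.66 for *Mrpl27* (0.279) and -0.58 for *Tlr3* (0.62).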

How the results depend on the processing

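The 50 calls between trained genotypes became 29 without the filter, 26 with array weights, 16 with the 6 trained arrays alone (12 higher, 4 lower) and 1 with the t-test of the figure legend after adjustment, and 16 of the 50 clusters carry 1 symbol. With the replicate block, 26 were called. The labels do not say whether mice of the same number were paired. After removal of group means, same-numbered mice correlated at -0.0272 to 0.0686 and mice of different numbers at -0.0426 to 0.0572. Such correlations cannot show whether mice were paired. Leaving out 1 array gave 22 (without trained WT mouse 1) to 47 calls, and for the difference between trained and naive contrasts 4 to 10 (without trained Stau2GT mouse 2) in place of 6. Without the naive arrays in turn 26 to 35 clusters were called. Quantile normalization gave 50 calls, of which 46 were among the original, and median centring 45, all among them. The 25 lower snoRNA genes at an unadjusted p under 0.05 became 15 with the t-test and 21 to 32 otherwise, and the median of -0.255 stayed between -0.288 (without Stau2GT mouse 2) and -0.183 (without Stau2GT mouse 3). The median of a list changed its sign under quantile normalization in 18 of 136 lists (each with a median within 0.017 of 0), under centring in 7 (within 0.008), and with the filter at 6 in 19 of 134 (within 0.113). Genes lower at an unadjusted p under 0.05 numbered 513, and 1005 without Stau2GT mouse 1. The cause of these shifts was not tested. How far dim signals limit the differences was not tested.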

Other observations

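Families of barrier and membrane proteins not described above also leaned to either side without a called member. Of 13 claudins, which seal tight junctions, 10 were above 0 in trained Stau2GT brains (median 0.117, and 0.075 to 0.128 when 1 array was left out), and of 9 aquaporins, which are water channels, 7 were above 0 (median 0.133, 0.060 without WT mouse 3). Of 8 annexins 5 were below 0 (median -0.065, -0.003 without Stau2GT mouse 1 or without mouse 2), although *Anxa4* was at 0.49. The median signal level of these 3 families was 6.29, 6.04 and 6.25, near that of the collagens.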
